A study of Mus musculus with 12 samples.

Results

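Cells of the mouse kidney line PT-22, labelled as proximal tubule, were compared 6 days after treatment with 4-hydroxytamoxifen with untreated cells, by RNA sequencing of polyA RNA. The comparison comprised the 3 libraries labelled day 6 (A, B and C) and the 3 libraries labelled control (A, B and C), which are 6 of the 12 libraries of the study, and it was made over all genes that passed a filter on low counts. The day 6 cells carried the genotype Pax2-/-, Pax8 fl/fl, Rosa-CreERT2, were grown until confluent and received 1 µM 4-hydroxytamoxifen for 2 days. The control cells had the same line, genotype and culture and received no drug, and their RNA represents the baseline. Libraries from days 2 and 12 after treatment, with 3 libraries each, completed the series and were used here to place the day 6 values in time. The study asked what loss of PAX8 does to expression in these cells. All groups came from 1 line that already lacks Pax2 and carries the recombinase, and no vehicle group and no untreated cells of a later day were among the libraries, so PAX8 depletion, the drug, the recombinase activity and time in culture cannot be told apart. The labels do not say whether replicates A to C were separate cultures, so p-values measure the spread between libraries, which may be technical.

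PAX8 and PAX2 are paired-box transcription factors that start the nephric lineage in the embryo, and PAX8 continues to be made in tubule epithelium after birth. The proximal tubule recovers amino acids, glucose, phosphate, bicarbonate and filtered protein through transporters, peptidases and endocytic receptors on its brush border, and the hepatocyte nuclear factor HNF4A drives much of that programme. In a Rosa-CreERT2 line, 4-hydroxytamoxifen lets a Cre recombinase fused to an oestrogen receptor enter the nucleus and cut DNA between loxP sites, here in Pax8.

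Library totals were 10027484, 9068647 and 7482293 counts at day 6 and 8660496, 7282337 and 9518995 counts in control, and 13513 of 55491 genes passed the filter. Levels are given as CPM, counts scaled to a common library size, means are given with their SD over 3 libraries, and differences are log2 values of day 6 over control with their standard error, from the quasi-likelihood test of edgeR, adjusted by the Benjamini-Hochberg method over all tested genes. A gene is called where that adjusted p is under 0.05. The first principal component of the 12 libraries took 62.8% of the variance. Mitochondrial transcripts made up 3.91% ± 0.148 of counts at day 6 and 4.25% ± 0.220 in control (SD, n = 3 each; exact permutation p = 0.2, two-sided). As a share of TPM they made up 11.2% ± 0.0371 at day 6 and 12.6% ± 0.824 in control, without overlap (exact permutation p = 0.1). Malat1, a long noncoding RNA retained in the nucleus, held 0.433% ± 0.0534 of counts at day 6 and 0.260% ± 0.0140 in control (SD, n = 3 each; exact permutation p = 0.1, the smallest that 3 against 3 libraries allow). The part of RNA composition in the differences below was not tested.

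Pax8 (ENSMUSG00000026976, chromosome 2, 24420560 to 24475599, build GRCm38) was counted at 249.5, 249 and 268 CPM at day 6, against 221, 228 and 226 CPM in control. The groups did not overlap and the gene-level count was slightly higher at day 6 (log2 difference 0.18 ± 0.07, edgeR adjusted p 0.0181; exact permutation p = 0.1, n = 3 each). This call was lost on the deposited TPM values (limma adjusted p 0.288), without control replicate A (edgeR adjusted p 0.0574) and without day 6 replicate C (edgeR adjusted p 0.0978). A gene count includes every exon, the exons between the loxP sites are not given in the labels, and the count therefore checks neither the deletion nor the labels. Pax2, named as deleted in the genotype of both groups, was counted at 74.9, 75.7 and 86.4 CPM at day 6, against 42.6, 44.4 and 53.4 CPM in control (log2 difference 0.75 ± 0.10, edgeR adjusted p 8.78e-07). Transcript from the Pax2 locus was thus present in all 6 libraries and higher at day 6. The Cre transgene gave 22.6, 22.4 and 24.1 CPM at day 6, against 24.9, 29.5 and 24.3 CPM in control, close together without overlap, and was not called (log2 difference -0.18 ± 0.10, edgeR adjusted p 0.122). The related Pax5 had 1 count in total at day 6 and 29 in control, below the filter.

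Expression differed widely. At day 6, 7343 genes were called against control, 54.3% of those tested, with 3614 higher (26.7%) and 3729 lower (27.6%). Most changes were small: 1825 of the higher and 2154 of the lower genes differed by under 1.5-fold, while 154 genes in each direction differed by over 8-fold. At least 2-fold differences among the called genes numbered 978 higher (7.24%) and 814 lower (6.02%), together 13.3% of tested genes. The 3 libraries of each group did not overlap in 8224 genes (60.9%), higher at day 6 in 4028 (29.8%) and lower in 4196 (31.1%). A test against a 2-fold change itself (glmTreat of edgeR) called 1037 genes, 556 higher and 481 lower. On the deposited TPM values, limma on log2(TPM + 1) called 5718 genes, of which 61.9% were higher, against 49.2% of the edgeR calls. The median log2 difference of all tested genes was -0.01 on the CPM scale and 0.0859 on that TPM scale. Gene length moved with direction: of the fifth of tested genes with the shortest exon length 16.8% were higher, and of the fifth with the longest exon length 38.7%. The part of length in the gene groups below was not tested. Some of these groups share most of their members, so their counts are not separate results.

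**Figure D1:**
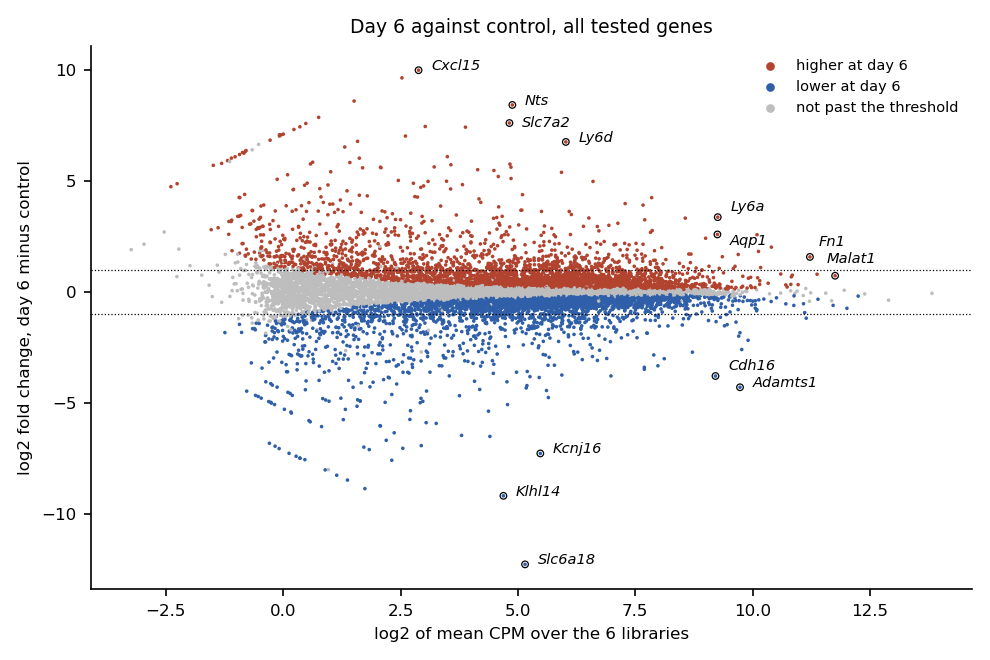
Log2 difference of day 6 over control (vertical axis) against mean log2 CPM (horizontal axis) for each tested gene, with called genes in colour, other genes in grey, dotted lines at 2-fold and some genes named. The 978 higher and 814 lower genes beyond the dotted lines lie on both sides of a centre at -0.01.

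Among the largest rises were genes for secreted and cell-surface proteins that were almost silent in control. Nts, which encodes the peptide neurotensin, had 56.0, 60.1 and 60.1 CPM at day 6, against 0.346, 0.138 and 0 CPM in control (log2 difference 8.42 ± 0.23, edgeR adjusted p 4.02e-26). Mmp13 encodes a collagenase and had 13.0, 10.5 and 12.7 CPM at day 6, against 0.115, 0.138 and 0 CPM in control, 321 counts in total at day 6 and 2 in control, a ratio of 154 with a 95% counting interval of 42.2 to 1274. In both genes every day 6 library lay above every control library, which the rule for naming the largest rises requires. Their promoters are shown because both hold the letters TGANTCA, bound by the AP-1 family in other systems, within the 250 bases before the gene start, and because many genes of the immediate early and AP-1 group differed, as described below. The sequences are from RefSeq on GRCm38.p6, read along the gene's own strand, for Nts at chr10:102490419-102490668 (minus strand) and for Mmp13 at chr9:7272264-7272513 (plus strand), with the match in capitals.
Nts: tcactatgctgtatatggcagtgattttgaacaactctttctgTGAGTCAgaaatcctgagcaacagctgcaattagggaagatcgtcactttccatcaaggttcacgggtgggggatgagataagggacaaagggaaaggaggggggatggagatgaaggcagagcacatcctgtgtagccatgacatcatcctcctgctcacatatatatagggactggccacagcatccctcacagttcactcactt
Mmp13: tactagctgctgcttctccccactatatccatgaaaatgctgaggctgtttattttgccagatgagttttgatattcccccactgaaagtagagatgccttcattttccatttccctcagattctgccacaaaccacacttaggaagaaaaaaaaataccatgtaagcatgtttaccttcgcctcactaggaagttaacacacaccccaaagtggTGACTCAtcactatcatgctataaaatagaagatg
The match begins 207 bases before the start of Nts and 35 bases before that of Mmp13. No motif searched contains another. These letters, searched on both strands in 300-base windows of 250 bases before to 50 after the start, occurred in 7.81% of all 32851 windows and in 6.05% of the 10050 tested genes with a window. Of the genes at least 2-fold higher 65 of 658 (9.88%) held them, and of those at least 2-fold lower 51 of 574 (8.89%).

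Several of the other large rises were matrix and carrier proteins. Ogn, the small leucine-rich proteoglycan osteoglycin, had 22.7, 25.3 and 18.8 CPM at day 6, against 0.461, 0 and 0.418 CPM in control. Adamts2, which trims the amino end of procollagens, had 15.3, 20.3 and 19.1 CPM at day 6, against 0.461, 0 and 0.523 CPM in control. Ltbp2, a matrix binding protein of the latent TGF-beta family, had 18.1, 15.7 and 15.6 CPM at day 6, against 0.576, 0.415 and 0.523 CPM in control. None of these 3 genes reached 1 CPM in any control library. Gc, the vitamin D binding protein of plasma, had 103, 132 and 121 CPM at day 6, against 2.19, 2.91 and 3.34 CPM in control, a 41.8-fold rise (log2 difference 5.39 ± 0.14, edgeR adjusted p 9.25e-24). Avpr1a, a vasopressin receptor, had 33.8, 35.8 and 34.0 CPM at day 6, against 0.691, 0.969 and 0.627 CPM in control. The axon guidance ligand Sema3d had 53.2, 63.1 and 51.2 CPM at day 6, against 1.27, 0.969 and 0.836 CPM in control. Slc7a2, a carrier of arginine and lysine, had 61.2, 54.1 and 53.1 CPM at day 6, against 0.230, 0.277 and 0.314 CPM in control. Each of these rose in all 3 libraries over all 3 controls, which the rule for naming the largest rises requires.

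Intracellular regulators also appeared among the 20 largest rises that meet the naming rule. Cdc42ep3, an effector of the small GTPase CDC42 that acts on actin and septins, averaged 56.6 ± 3.48 CPM at day 6 and 1.16 ± 0.317 CPM in control (SD, n = 3 each). Cyp1b1, a cytochrome P450 of xenobiotic and steroid metabolism, averaged 46.6 ± 2.77 CPM at day 6 and 1.27 ± 0.214 CPM in control. Akr1c18, a steroid dehydrogenase that inactivates progesterone, averaged 10.6 ± 0.508 CPM at day 6 and 0.293 ± 0.255 CPM in control. Their log2 differences were 5.62 ± 0.15, 5.20 ± 0.15 and 5.02 ± 0.32, and the groups of each did not overlap, which the naming rule requires. Ly6d, a surface protein of the Ly6 family, had 128, 132 and 126 CPM at day 6, against 1.84, 0.830 and 0.836 CPM in control. Ifi211, of the p200 family with near-identical copies and therefore uncertain, had 28.2, 24.1 and 17.7 CPM at day 6, against 0.461, 0.277 and 0.523 CPM in control. Cxcl15, a chemokine, was at 0 in all control libraries and had 14.1, 15.6 and 14.5 CPM at day 6, which with 3 counts over the control group as a floor is at least 125-fold higher.

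The largest falls included genes of tubule transport, polarity and brush border. Slc6a18 (ENSMUSG00000021612, chromosome 13, 73661752 to 73678023), a carrier of neutral amino acids at the brush border of the proximal tubule, had no count in any day 6 library, against 73.4, 68.9 and 70.9 CPM in control, at least 631-fold lower with the same floor over the group. Klhl14, a BTB-kelch protein, had 0, 0.111 and 0.133 CPM at day 6, against 53.6, 49.9 and 51.1 CPM in control. Kcnj16, an inward rectifier potassium channel of the basolateral membrane, had 0.596, 0.553 and 0.533 CPM at day 6, against 95.2, 83.7 and 86.5 CPM in control (log2 difference -7.26 ± 0.17, edgeR adjusted p 1.47e-27). All 3 genes were near or at 0 in every day 6 library. Myo5b, a motor of apical recycling vesicles, had 4.67, 3.98 and 4.27 CPM at day 6, against 94.5, 88.8 and 96.4 CPM in control. Mal, a membrane protein of apical sorting, had 4.37, 3.43 and 2.80 CPM at day 6, against 92.0, 95.6 and 103 CPM in control. Aoc1, the diamine oxidase that breaks down histamine and putrescine, had 1.59, 1.33 and 1.87 CPM at day 6, against 47.9, 58.0 and 53.9 CPM in control. These 3 stayed measurable at day 6 and fell by 4.43, 4.74 and 5.06 on the log2 scale.

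Enzymes and surface molecules made up much of the rest of the 20 named falls. Gcnt1, which branches O-linked sugars, averaged 0.936 ± 0.432 CPM at day 6 and 40.5 ± 3.45 CPM in control. Mgll, the lipase of monoacylglycerols, averaged 1.64 ± 0.404 CPM at day 6 and 34.7 ± 1.90 CPM in control. Lipg, an endothelial lipase, averaged 1.02 ± 0.308 CPM at day 6 and 26.0 ± 2.95 CPM in control. Cpn1, a subunit of carboxypeptidase N, averaged 0.299 ± 0.0324 CPM at day 6 and 27.5 ± 2.57 CPM in control. Fat2, an atypical cadherin, had 3 counts in total at day 6 and 263 in control, a ratio of 91.6 with an interval of 31.0 to 447. Lrrc32, a surface anchor of latent TGF-beta, averaged 0.513 ± 0.258 CPM at day 6 and 15.2 ± 0.963 CPM in control. H2-DMb2, which has a near copy and is therefore uncertain, averaged 0.269 ± 0.171 CPM at day 6 and 16.2 ± 2.52 CPM in control. The log2 differences of these 7 genes ran from -6.45 for Cpn1 to -4.38 for Mgll. None overlapped, which the rule for naming the largest falls requires.

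On the scale of CPM gained or lost, other genes led. The rise of Fn1, the matrix protein fibronectin, was largest at 3447, 3735 and 3549.9 CPM at day 6, against 1206, 1224 and 1155 CPM in control. Cp, the copper oxidase ceruloplasmin, had 2107, 2287 and 2108 CPM at day 6, against 538, 497 and 566 CPM in control. Thbs1, the matricellular protein thrombospondin 1, had 1843, 1861 and 1911 CPM at day 6, against 319.8, 304 and 315 CPM in control. Every day 6 library lay above every control library, and the log2 differences were 1.58 ± 0.05, 2.02 ± 0.06 and 2.58 ± 0.05. Ahnak, a large scaffold protein, had 1680.4, 1814 and 1733 CPM at day 6, against 509, 476 and 487 CPM in control. The non-muscle myosin Myh9 had 3456, 3347 and 3307 CPM at day 6, against 1820.1, 2026 and 1956 CPM in control. Ly6a, a surface protein whose family has close copies, had 1130.5, 1210.3 and 1005 CPM at day 6, against 91.8, 121 and 111 CPM in control. Among the losses, Adamts1, a matrix protease, had 79.4, 80.4 and 90.0 CPM at day 6, against 1659, 1551 and 1639 CPM in control (log2 difference -4.28 ± 0.07, edgeR adjusted p 1.78e-32). Igfbp5, which binds insulin-like growth factors, had 229.6, 266 and 252 CPM at day 6, against 1455, 1414 and 1615 CPM in control. Ivns1abp, a kelch protein that binds actin, had 361, 321 and 328 CPM at day 6, against 1381, 1222 and 1388 CPM in control. Akap12, a scaffold for kinase signalling, had 347, 343 and 355 CPM at day 6, against 1519.8, 1549.8 and 1631 CPM in control. The groups of all these genes lay apart, as in 60.9% of all tested genes.

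**Figure D2:**
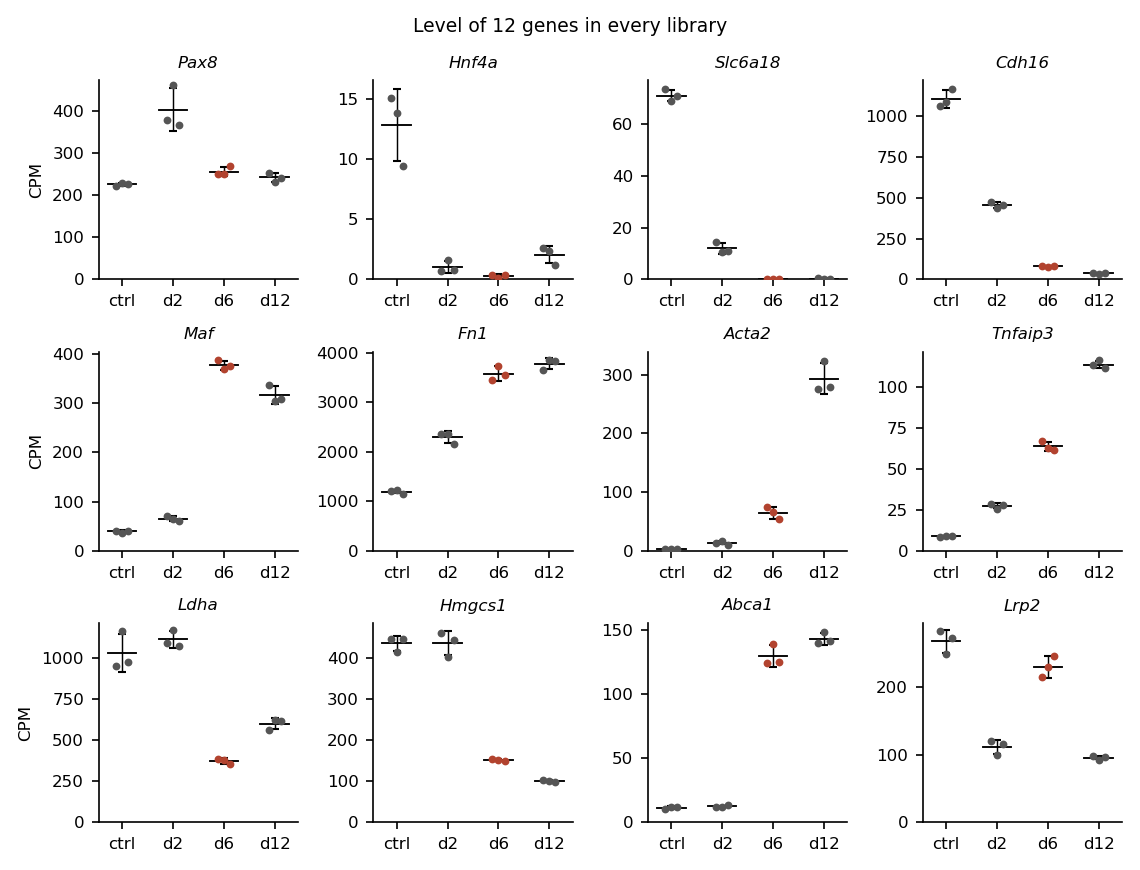
CPM of 12 genes in each library of the 4 groups (points), with the mean (line) and SD (bars, n = 3), in the order control, day 2, day 6 and day 12, with day 6 in red. Slc6a18 and Hnf4a are near 0 at day 6, while Maf, Fn1, Acta2, Tnfaip3 and Abca1 lie above all control libraries.

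Proximal tubule markers were mostly lower at day 6. Of 16 tested members of that list 12 fell and 2 rose, with a median log2 difference of -1.57 against -0.01 over all tested genes, where 27.6% fell. Beside Slc6a18, the aminopeptidase gene Anpep had 7.56, 8.73 and 9.60 CPM at day 6, against 111, 114 and 117 CPM in control. Ggt1, the brush border enzyme that cleaves glutathione, had 3.08, 2.32 and 3.87 CPM at day 6, against 25.7, 23.9 and 28.5 CPM in control. Slc4a4, the basolateral bicarbonate carrier, had 36.8, 42.3 and 36.7 CPM at day 6, against 97.2, 101 and 97.4 CPM in control. All 3 fell in every library (log2 differences -3.73 ± 0.09, -3.09 ± 0.17 and -1.35 ± 0.07). The 2 that rose were Dab2 and Aqp1. Dab2, an endocytic adaptor, had 196, 184 and 184 CPM at day 6, against 92.3, 84.5 and 92.5 CPM in control. Aqp1, the water channel, had 1165, 895 and 1072 CPM at day 6, against 176, 174 and 169 CPM in control. Day 6 replicate B was the lowest of the 3 for Aqp1 and still lay above every control library (log2 difference 2.59 ± 0.12, edgeR adjusted p 1.35e-08). Lrp2, the endocytic receptor megalin, differed little, at 214, 229 and 246 CPM at day 6, against 283, 249 and 272 CPM in control (log2 difference -0.22 ± 0.06, edgeR adjusted p 0.00272), and this call was lost on TPM values (limma adjusted p 0.459).

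The label proximal tubule held only in part in control. Of the 12 defining proximal tubule markers, Slc34a1 (phosphate carrier) and Slc5a2 (glucose carrier) were at 0 in all 6 libraries, 5 of the 12 averaged under 1 CPM in both groups, these included, and Cubn, the partner of megalin, averaged 0.704 ± 0.175 CPM at day 6 and 0.882 ± 0.199 CPM in control. The summed level of the 12 was 1233 to 1486 CPM at day 6 and 800.2 to 819.7 CPM in control, of which Aqp1 gave 895 to 1165 CPM at day 6 and 169 to 176 CPM in control. The 5 markers of the loop of Henle and distal tubule were each under 1 CPM, with Slc12a1, Calb1 and Pvalb at 0. In bulk samples, fewer cells of a type and less RNA per cell cannot be told apart.

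Transcription factors of the tubule moved in both directions. Hnf4a (ENSMUSG00000017950, chromosome 2, 163506808 to 163572910) had 0.398, 0.111 and 0.400 CPM at day 6, against 15.1, 13.8 and 9.41 CPM in control (log2 difference -5.34 ± 0.36, edgeR adjusted p 1.12e-14). It was close to 0 in every day 6 library. Ehf, an epithelial ETS factor, had 4.27, 3.76 and 3.20 CPM at day 6, against 36.2, 35.7 and 30.3 CPM in control. Foxj1, the factor of motile cilia, had 4.87, 3.65 and 3.87 CPM at day 6, against 25.3, 29.3 and 24.0 CPM in control. Against these falls, Maf, a bZIP factor of proximal tubule development, had 387, 369 and 374 CPM at day 6, against 41.4, 36.3 and 40.7 CPM in control (log2 difference 3.25 ± 0.07, edgeR adjusted p 3.62e-29). Foxq1, a forkhead factor, had 53.9, 51.3 and 63.3 CPM at day 6, against 1.27, 1.66 and 1.88 CPM in control. Runx2, known from bone, had 27.7, 26.5 and 27.3 CPM at day 6, against 5.41, 4.70 and 3.97 CPM in control. Zeb1, a repressor of epithelial genes, had 65.7, 63.9 and 63.6 CPM at day 6, against 23.3, 21.7 and 23.3 CPM in control. Of 59 tested factors on the list 33 rose (55.9%, against 26.7% of all tested genes) and 22 fell (37.3%, against 27.6%). The median log2 difference was 0.46.

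Genes of the nephron progenitor and early nephron were more often higher than lower (median 0.63). Of 22 tested members 13 were higher (59.1%, against 26.7% of all tested genes). Another 6 were lower (27.3%), near the 27.6% of all tested genes. Eya1, a phosphatase and coactivator required for nephron progenitors, had 188, 173 and 188 CPM at day 6, against 23.6, 24.6 and 23.0 CPM in control. Gdnf, the ligand of the RET receptor in kidney branching, had 7.26, 8.51 and 10.002 CPM at day 6, against 1.38, 1.11 and 1.36 CPM in control. Its co-receptor Gfra1 had 68.2, 74.3 and 72.2 CPM at day 6, against 19.6, 16.2 and 15.3 CPM in control. Wnt4, which drives the mesenchyme-to-epithelium step of nephron formation, had 125, 131 and 115 CPM at day 6, against 39.1, 43.6 and 44.0 CPM in control. Lef1, the transcription factor that WNT signals act on, had 9.94, 9.72 and 8.94 CPM at day 6, against 1.498, 0.553 and 0.836 CPM in control. The groups of these 5 genes did not overlap, as in 60.9% of all tested genes. The log2 differences of Eya1, Gfra1, Wnt4 and Lef1 were 2.95 ± 0.07, 2.07 ± 0.09, 1.55 ± 0.07 and 3.27 ± 0.25. The falls included Cdh6, a cadherin of the early proximal tubule, at 108, 117 and 111 CPM at day 6, against 736, 704 and 749 CPM in control. The ligand Wnt11 also fell, at 1.29, 0.884 and 0.533 CPM at day 6, against 6.80, 8.16 and 9.83 CPM in control. In the WNT list 22 of 35 rose (62.9%, against 26.7% of all tested genes) and 4 fell (11.4%, against 27.6%). Among the rises was Ctnnb1 (beta-catenin), at 1235, 1319 and 1239.6 CPM at day 6, against 383, 385 and 406 CPM in control.

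Epithelial junction genes fell more often than they rose, and mesenchymal genes rose more often than they fell. Of 42 tested epithelial genes 21 were lower and 12 higher (median -0.36), and of 34 mesenchymal genes 22 were higher and 6 lower (median 1.23), where 26.7% of all tested genes were higher and 27.6% lower. Cdh16, the kidney-specific cadherin, had 81.3, 78.3 and 81.9 CPM at day 6, against 1062, 1083 and 1163 CPM in control. Cdh1, E-cadherin, had 3.18, 3.32 and 2.93 CPM at day 6, against 25.6, 26.3 and 30.4 CPM in control. Llgl2, a basolateral polarity protein, had 44.1, 38.7 and 44.4 CPM at day 6, against 112, 126 and 127 CPM in control. These 3 fell in every library, while the tight junction protein F11r rose, at 233, 247 and 234 CPM at day 6, against 94.0, 94.4 and 92.5 CPM in control. Vim, the intermediate filament vimentin, had 609.5, 640.0 and 642 CPM at day 6, against 195, 207 and 178 CPM in control (log2 difference 1.71 ± 0.06, edgeR adjusted p 4.18e-23). Axl, a receptor tyrosine kinase, had 598, 601 and 634 CPM at day 6, against 194, 184 and 182 CPM in control. The integrin subunit Itgb3 had 185, 182 and 185 CPM at day 6, against 27.9, 29.2 and 25.2 CPM in control. Against the direction of the mesenchymal group, the lysyl oxidase Loxl2 had 89.6, 89.3 and 77.2 CPM at day 6, against 164, 165 and 155 CPM in control and the tropomyosin Tpm1 had 894, 847 and 838 CPM at day 6, against 1093, 1146 and 1119 CPM in control.

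Contractile and smooth muscle genes were among the higher genes. Acta2, smooth muscle actin, had 75.5, 65.6 and 54.9 CPM at day 6, against 3.46, 2.63 and 3.24 CPM in control (log2 difference 4.38 ± 0.18, edgeR adjusted p 2.74e-13). Tagln, transgelin, had 10.5, 12.6 and 10.7 CPM at day 6, against 2.07, 1.38 and 1.57 CPM in control. Myl9, a myosin light chain, had 196, 186 and 187 CPM at day 6, against 36.6, 40.3 and 40.8 CPM in control. Each day 6 library exceeded each control library for all 3, as in 29.8% of all tested genes. The actin and adhesion list had 51 of 80 genes higher (63.75%, against 26.7% of all tested genes) and 14 lower (17.5%, against 27.6%), with a median of 0.28. Among the higher were Cnn2 (calponin 2) at 317, 312 and 321 CPM at day 6, against 96.0, 108 and 104 CPM in control and Itga2, a collagen receptor subunit, at 126, 126 and 131 CPM at day 6, against 46.8, 41.5 and 42.8 CPM in control. On TPM values 6 genes of this list were called lower. The summed level of the 7 defining markers of fibroblasts and smooth muscle was 62.4 to 84.5 CPM at day 6 and 5.40 to 6.06 CPM in control, and Acta2 made up most of it at day 6. The part of these markers in the matrix and contractile results was not tested. The fibroblast markers Pdgfra and Col3a1 were at 0 in all 6 libraries, and Col1a1 overlapped, at 3.38, 2.76 and 1.73 CPM at day 6, against 1.84, 2.35 and 2.40 CPM in control.

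Targets of TGF-beta and members of the BMP and activin pathway were mostly higher. Of 33 TGF-beta targets 28 rose (84.8%, against 26.7% of all tested genes) and 4 fell (12.1%, against 27.6%), with a median of 0.93. Of 29 BMP and activin genes 21 rose (72.4%) and 4 fell (13.8%), with a median of 1.09. Among ligands, the activin subunits rose: Inhbb had 83.5, 75.7 and 92.2 CPM at day 6, against 5.64, 7.75 and 7.003 CPM in control. Inhba had 38.2, 35.9 and 34.7 CPM at day 6, against 4.95, 6.503 and 5.85 CPM in control. The activin and BMP receptors Acvr1 and Acvr2a averaged 46.5 ± 3.38 CPM and 81.2 ± 5.88 CPM at day 6, and 16.7 ± 1.94 CPM and 32.6 ± 5.06 CPM in control (SD, n = 3 each), and both were called higher. The ligand Bmp6 fell, at 85.8, 78.2 and 78.6 CPM at day 6, against 146, 146 and 161 CPM in control. So did the TGF-beta receptor Tgfbr2, at 198, 196 and 195 CPM at day 6, against 338, 316 and 344 CPM in control. Among target genes, Id3, an inhibitor of helix-loop-helix factors, had 90.1, 85.5 and 77.8 CPM at day 6, against 15.8, 17.3 and 19.1 CPM in control. Pmepa1, a feedback inhibitor of TGF-beta signalling, had 288, 300.1 and 313 CPM at day 6, against 60.02, 65.9 and 71.4 CPM in control. Skil, a SMAD corepressor, had 173, 186 and 168 CPM at day 6, against 60.4, 56.3 and 66.5 CPM in control. Opposite to these, the matrix protein Tgfbi, named for its induction by TGF-beta, had 10.5, 8.51 and 11.6 CPM at day 6, against 91.8, 96.2 and 110.3 CPM in control (log2 difference -3.29 ± 0.12, edgeR adjusted p 1.09e-17).

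Matrix genes were divided. Of 55 tested 25 were higher (45.5%, against 26.7% of all tested genes) and 21 lower (38.2%, against 27.6%). Those that fell included basement membrane chains: Lama1 had 8.05, 7.96 and 10.002 CPM at day 6, against 44.7, 44.1 and 52.2 CPM in control. Col4a4 had 28.1, 25.4 and 24.8 CPM at day 6, against 83.9, 77.8 and 78.8 CPM in control. Col18a1, a basement membrane collagen, had 364, 332 and 354 CPM at day 6, against 949.7, 1008 and 1047 CPM in control. Col14a1, a collagen associated with interstitial fibrils, rose, at 25.3, 29.0 and 27.6 CPM at day 6, against 0.922, 0.830 and 1.05 CPM in control. Lama1, Col4a4 and Col18a1 were thus lower and Fn1, Thbs1 and Col14a1 higher. Of the matrix proteases and their inhibitors, 15 of 35 rose (42.9%) and 7 fell (20%). Mmp14, a membrane-bound protease, rose, at 147, 150.1 and 151 CPM at day 6, against 60.6, 57.6 and 63.6 CPM in control. Adamts5, an aggrecanase, fell, at 59.4, 61.8 and 64.7 CPM at day 6, against 519, 470.0 and 491 CPM in control.

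**Figure D3:**
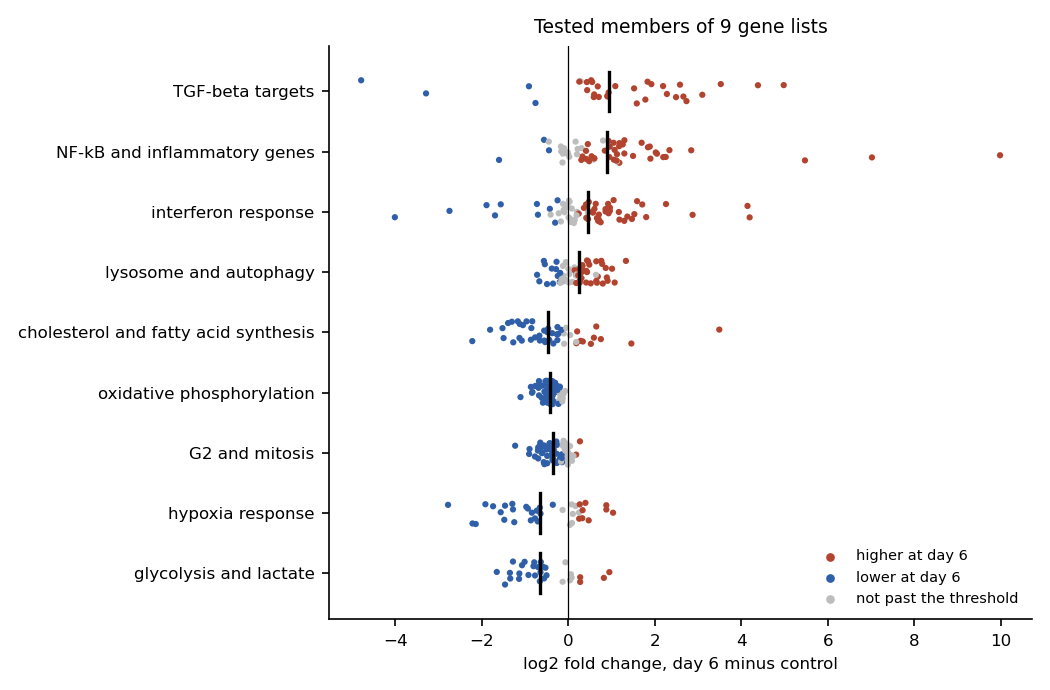
Log2 difference of day 6 over control for each tested member of 9 gene lists (points), with the median of each list (bar). Medians run from -0.66 for the hypoxia response to 0.93 for TGF-beta targets, and members of most lists lie on both sides of 0.

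Growth factor receptors and ligands rose more often than they fell (median 0.35). Of 59 tested, 35 were higher (59.3%, against 26.7% of all tested genes) and 15 lower (25.4%, against 27.6%). By at least 2-fold 17 were higher and 11 lower. Kitl, the ligand of the KIT receptor, had 217, 217 and 219.9 CPM at day 6, against 26.7, 25.5 and 29.1 CPM in control. Fgf7, a fibroblast growth factor that acts on epithelia, had 41.0, 47.4 and 46.7 CPM at day 6, against 3.23, 3.04 and 3.14 CPM in control. The receptor Fgfr1 had 157, 147 and 166 CPM at day 6, against 56.2, 52.3 and 57.8 CPM in control. All 3 rose in every library. Igf1, in contrast, had 60.3, 60.1 and 55.3 CPM at day 6, against 420.3, 410.1 and 421 CPM in control (log2 difference -2.83 ± 0.07, edgeR adjusted p 8.06e-28). In the list of YAP and TEAD targets 15 of 27 rose (55.6%) and 7 fell (25.9%, near the 27.6% of all tested genes). Amotl1, a YAP-binding angiomotin, rose, at 90.6, 90.4 and 90.7 CPM at day 6, against 40.9, 43.7 and 44.2 CPM in control. Nt5e, a surface enzyme that makes adenosine, fell, at 13.6, 11.9 and 13.3 CPM at day 6, against 77.8, 70.4 and 72.3 CPM in control. In the Notch list 14 of 26 rose (53.8%) and 4 fell (15.4%). The rises included the coactivators Maml2 and Maml3, at 26.3 ± 1.27 CPM and 60.3 ± 2.51 CPM at day 6, against 5.67 ± 0.621 CPM and 20.9 ± 1.08 CPM in control.

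Axon guidance genes likewise gave 24 of 42 higher (57.1%, against 26.7% of all tested genes) and 11 lower (26.2%, against 27.6%). Sema3a, a secreted repellent, had 144, 145 and 138 CPM at day 6, against 34.8, 30.9 and 30.6 CPM in control. Its receptor component Nrp2 had 283, 268 and 256 CPM at day 6, against 57.9, 60.9 and 66.0 CPM in control. L1cam, a neuronal adhesion molecule also made in the ureteric bud, had 25.3, 27.5 and 27.2 CPM at day 6, against 200.4, 204 and 228 CPM in control. The membrane-bound semaphorin Sema5a had 45.1, 51.5 and 41.5 CPM at day 6, against 464, 434 and 481 CPM in control. Secreted class 3 semaphorins named here rose and the membrane-bound Sema5a and Sema5b fell (log2 differences -3.32 ± 0.07 and -5.91 ± 0.27).

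Inflammatory genes of the NF-kB list were higher. Of 58 tested members 38 rose and 3 fell, with a median of 0.89, against 26.7% and 27.6% over all genes. Tnfaip3, a feedback inhibitor of NF-kB, had 66.9, 62.8 and 61.7 CPM at day 6, against 8.52, 9.13 and 9.09 CPM in control (log2 difference 2.84 ± 0.09, edgeR adjusted p 1.77e-23). Saa3, an acute phase protein, had 53.3, 37.5 and 40.9 CPM at day 6, against 1.04, 0.969 and 0.941 CPM in control. Osmr, a receptor subunit for oncostatin M, had 49.6, 51.1 and 49.5 CPM at day 6, against 9.91, 8.03 and 11.4 CPM in control. Irak2, a kinase below interleukin-1 receptors, had 49.4, 50.5 and 47.3 CPM at day 6, against 11.5, 11.1 and 12.9 CPM in control. The complement proteases C1ra and C1s1, which have close copies and are therefore uncertain, averaged 106 ± 6.18 CPM and 254 ± 12.2 CPM at day 6, and 26.2 ± 1.03 CPM and 55.3 ± 6.08 CPM in control. Of the 3 falls, 1 was at least 2-fold. This was Vcam1, an adhesion molecule singled out after its value was seen, which averaged 8.31 ± 2.43 CPM at day 6 and 25.8 ± 3.56 CPM in control (edgeR adjusted p 3.32e-06). The others were Il1r1, the interleukin-1 receptor, at 52.99, 51.5 and 53.9 CPM at day 6, against 79.4, 77.1 and 77.5 CPM in control, and Sod2, a mitochondrial superoxide dismutase, at 74.8, 74.6 and 66.5 CPM at day 6, against 96.2, 102 and 97.5 CPM in control. The AP-1 letters stood in 9 of 47 list genes with a window (19.1%), against 6.05% of tested genes. They stood in 6 of 30 list genes that rose (20%), a share close to that of the whole list, and in 0 of 2 that fell.

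The immediate early and AP-1 group had 31 of 46 tested members higher (67.4%, against 26.7% of all tested genes) and 4 lower (8.70%, against 27.6%), with a median of 0.98. The lower count was 2 with DESeq2, with no filter on low counts, on TPM values, without control replicate C and without day 6 replicate A or C. Junb, an AP-1 subunit, had 88.7, 95.1 and 99.8 CPM at day 6, against 15.8, 18.8 and 16.1 CPM in control. Nr4a1, an orphan nuclear receptor, had 37.7, 44.5 and 47.1 CPM at day 6, against 6.68, 6.78 and 8.57 CPM in control. Dusp4, a phosphatase of MAP kinases, had 37.8, 42.7 and 41.2 CPM at day 6, against 4.61, 4.29 and 3.34 CPM in control. Maff, a small MAF factor, had 68.1, 63.9 and 73.8 CPM at day 6, against 15.2, 21.9 and 20.8 CPM in control. The groups of all 4 lay apart, as in 60.9% of all tested genes. Fosl2, another AP-1 subunit, fell, at 104, 112 and 103 CPM at day 6, against 171, 178 and 184 CPM in control. So did the stress factor Atf3, at 13.2, 13.5 and 12.0 CPM at day 6, against 25.7, 22.3 and 24.8 CPM in control. Of the leukocyte markers, Adgre1 and Cd3e were at 0 in all 6 libraries, Ptprc had 0 counts at day 6 and 31 in control, and the sum of the 6 defining markers was 20.7 to 21.7 CPM at day 6 and 23.2 to 26.3 CPM in control. Of 8 tested leukocyte genes 2 rose, Ly6g and Lyz2, which have close copies and are uncertain, and 2 fell (25% each, near the shares over all tested genes). The lower count was 1 without control replicate C, without day 6 replicate B or C, with DESeq2, with the replicate block, with a stricter filter on low counts, on log2(TPM + 1) and in the 6 libraries alone.

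Interferon response genes rose more often than they fell. Of 67 tested members 38 rose (56.7%, against 26.7% of all tested genes) and 10 fell (14.9%, against 27.6%). The median was 0.45, and on TPM values 6 were called lower. Cd274, the checkpoint ligand PD-L1, had 32.7, 32.3 and 37.3 CPM at day 6, against 2.07, 2.35 and 1.25 CPM in control (log2 difference 4.19 ± 0.18, edgeR adjusted p 1.40e-20). Ifngr1, a receptor chain for interferon gamma, had 319, 329.7 and 326 CPM at day 6, against 133, 118 and 127 CPM in control. Gbp2, an interferon-inducible GTPase, had 26.2, 24.2 and 23.2 CPM at day 6, against 6.57, 7.19 and 7.42 CPM in control. The class I genes H2-D1 and H2-K1, which share sequence and are therefore uncertain, averaged 304 ± 10.9 CPM and 249 ± 7.26 CPM at day 6, and 93.1 ± 3.83 CPM and 132 ± 7.50 CPM in control. The antiviral gene Ifit3 fell, at 24.9, 17.5 and 20.4 CPM at day 6, against 80.6, 77.3 and 76.1 CPM in control (log2 difference -1.89 ± 0.11, edgeR adjusted p 6.80e-14), and so did its near copy Ifit3b, at 1.59, 2.10 and 2.27 CPM at day 6, against 32.5, 28.5 and 34.2 CPM in control, so both are uncertain. Gbp2 and Ifit3 moved in opposite directions, and their promoters are shown because both hold the letters TTTC followed, after any 2 bases, by TTTC, the core of the interferon-stimulated response element, marked in capitals in the 250 bases before the start. They lie at chr3:142620413-142620662 (plus strand) and at chr19:34583279-34583528 (plus strand) on GRCm38.p6 and are from RefSeq.
Gbp2: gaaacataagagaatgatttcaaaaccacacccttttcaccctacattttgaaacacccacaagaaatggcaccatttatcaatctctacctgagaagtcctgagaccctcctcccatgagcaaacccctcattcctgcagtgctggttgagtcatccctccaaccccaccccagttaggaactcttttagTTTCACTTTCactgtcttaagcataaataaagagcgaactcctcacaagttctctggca
Ifit3: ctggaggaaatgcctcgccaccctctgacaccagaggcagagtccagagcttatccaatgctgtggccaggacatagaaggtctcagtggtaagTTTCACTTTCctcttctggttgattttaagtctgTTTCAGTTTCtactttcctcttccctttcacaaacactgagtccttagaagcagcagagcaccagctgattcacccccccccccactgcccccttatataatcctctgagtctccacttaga
In Gbp2 the match begins 59 bases before the start, and in Ifit3 the 2 matches begin 156 and 122 bases before it. In the 300-base windows, both strands searched, the letters occurred in 3.44% of all windows, in 3.53% of tested genes, in 22 of 55 list genes with a window (40%), in 12 of 30 that rose (40%) and in 4 of 8 that fell (50%). They stood in 42 of 658 genes at least 2-fold higher (6.38%) and in 18 of 574 at least 2-fold lower (3.14%).

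Glycolysis and respiratory chain genes were mostly lower at day 6. In glycolysis 21 of 30 tested genes fell (70%, against 27.6% of all tested genes) and 4 rose (13.3%, against 26.7%), with a median of -0.65. Hk2, a hexokinase, had 12.7, 11.1 and 13.1 CPM at day 6, against 37.1, 38.1 and 40.7 CPM in control. Aldoa, the aldolase, had 463, 471 and 418 CPM at day 6, against 1072, 1293 and 1088 CPM in control. Gapdh, a gene often taken as a constant, had 1573, 1529.6 and 1476 CPM at day 6, against 2763, 3150.3 and 2769 CPM in control. Ldha, the lactate dehydrogenase subunit, had 386, 380.4 and 355 CPM at day 6, against 951, 1168 and 978 CPM in control. All 4 fell, by 1.66, 1.35, 0.92 and 1.46 on the log2 scale, while the lactate carrier Slc16a1 rose, at 207, 218 and 190.4 CPM at day 6, against 107, 107 and 106 CPM in control. These enzymes have processed pseudogenes that can share reads, and how reads were divided among them is not known. Of 37 hypoxia response genes, some of them shared with glycolysis, 21 fell (56.8%) and 9 rose (24.3%, near the 26.7% of all tested genes), with a median of -0.66. Stc2, a secreted stanniocalcin, had 18.1, 18.2 and 19.7 CPM at day 6, against 129, 127 and 129 CPM in control. P4ha1, a collagen prolyl hydroxylase, had 68.2, 71.8 and 62.5 CPM at day 6, against 258, 264 and 245 CPM in control. The transcript of the oxygen-regulated factor itself, Hif1a, rose, at 333, 339 and 284 CPM at day 6, against 178, 174 and 169.7 CPM in control.

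In oxidative phosphorylation 64 of 75 tested nuclear genes fell (85.3%, against 27.6% of all tested genes) and 0 rose (against 26.7%), with a median of -0.42. Cycs, cytochrome c, had 57.6, 52.2 and 47.2 CPM at day 6, against 114, 108 and 116 CPM in control (log2 difference -1.11 ± 0.08, edgeR adjusted p 9.31e-13). Cox5a, a subunit of cytochrome oxidase, had 39.5, 38.5 and 41.7 CPM at day 6, against 69.3, 76.4 and 72.4 CPM in control. Atp5b, the catalytic subunit of ATP synthase, had 769, 786 and 778 CPM at day 6, against 1365, 1465 and 1351 CPM in control. The falls were under 2-fold for most members and present in every library of the genes named. The median exon length of this list was 1756 bases, against 4290 over all tested genes. The mitochondrial ribosome and import list had 42 of 67 lower (62.7%) and 2 higher (2.99%, 1 gene on TPM values), with a median of -0.26. Among the lower was the chaperonin Hspd1, at 264, 263 and 238 CPM at day 6, against 536, 516 and 494 CPM in control. Fatty acid oxidation had no such tilt, with 14 of 57 higher (24.6%) and 15 lower (26.3%), near the 26.7% and 27.6% of all tested genes. On TPM values 6 were lower. Acsl3 and Acsl1, which activate fatty acids, went opposite ways, with 246, 241 and 242 CPM at day 6, against 80.3, 72.9 and 77.1 CPM in control for Acsl3 and 20.3, 22.8 and 19.9 CPM at day 6, against 61.3, 60.7 and 59.0 CPM in control for Acsl1.

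Genes of cholesterol and fatty acid synthesis were mostly lower and a sterol exporter was higher. Of 47 tested genes of cholesterol and fatty acid synthesis 32 fell (68.1%, against 27.6% of all tested genes) and 10 rose (21.3%, against 26.7%), with a median of -0.47. Hmgcs1, the synthase before the rate-limiting step, had 153, 152 and 148 CPM at day 6, against 447, 413 and 445 CPM in control (log2 difference -1.52 ± 0.06, edgeR adjusted p 6.78e-22). Sqle, squalene epoxidase, had 130.2, 131 and 136 CPM at day 6, against 323, 311 and 327 CPM in control. Elovl6, an elongase of fatty acids, had 21.8, 20.996 and 18.8 CPM at day 6, against 104, 89.7 and 94.6 CPM in control. Abca1, which exports cholesterol to apolipoproteins, had 124, 139 and 125 CPM at day 6, against 10.4, 12.3 and 11.9 CPM in control (log2 difference 3.49 ± 0.09, edgeR adjusted p 5.62e-27). Every day 6 library lay below every control library for the 3 synthesis genes and above for Abca1.

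Carriers and channels moved in both directions. Of 63 solute carriers 21 rose (33.3%, against 26.7% of all tested genes) and 29 fell (46.0%, against 27.6%), and by at least 2-fold 6 rose and 16 fell. Of 35 channels and pumps 14 rose (40%) and 12 fell (34.3%), and by at least 2-fold 4 rose and 8 fell. Carriers of organic osmolytes and chloride were among the rises: Slc5a3 (myo-inositol) had 413, 347 and 371 CPM at day 6, against 110.1, 98.4 and 103 CPM in control. Slc6a6 (taurine) had 839.6, 851 and 851 CPM at day 6, against 409, 395 and 408 CPM in control. Slc12a2 (sodium, potassium and chloride) had 362, 363 and 338 CPM at day 6, against 138, 129.9 and 127 CPM in control. The calcium-permeable channel Trpv4 fell, at 29.4, 30.7 and 30.7 CPM at day 6, against 157, 159 and 152 CPM in control, as did the endosomal chloride exchanger Clcn5, at 44.4, 47.3 and 40.3 CPM at day 6, against 115, 111 and 117 CPM in control. Among cilium and cyst genes 20 of 62 fell (32.3%, near the 27.6% of all tested genes, and 13 genes on TPM values). Another 10 rose (16.1%, against 26.7%), among them Pkd1 (polycystin 1), at 242, 243 and 266 CPM at day 6, against 125, 112 and 129 CPM in control.

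Genes of cell division were modestly lower. In the G2 and mitosis list 49 of 73 fell (67.1%, against 27.6% of all tested genes) and 2 rose (2.74%, against 26.7%), with a median of -0.36. In the S phase list 31 of 62 fell (50%) and 4 rose (6.45%), with a median of -0.15. On TPM values 29 and 12 genes of these lists were called lower, and 2 S phase genes were called higher without control replicate B or day 6 replicate C. Plk1, a mitotic kinase, had 75.7, 68.0 and 76.4 CPM at day 6, against 132, 145 and 136 CPM in control. Ccnb1, cyclin B1, had 152, 159 and 144 CPM at day 6, against 249, 244 and 248 CPM in control. Rrm2, a subunit of ribonucleotide reductase, had 88.4, 96.8 and 88.0 CPM at day 6, against 164, 161 and 156 CPM in control. These 3 fell in every library, by 0.91, 0.70 and 0.82 on the log2 scale. The letters TTTGAA, the core of the cell cycle homology region, both strands searched, stood in 41 of 62 G2 and mitosis genes with a window (66.1%), against 14% of tested genes and 17.9% of all windows, and in 28 of 42 that fell (66.7%). Cdkn1a, the p21 inhibitor of cyclin-dependent kinases, fell too, at 62.9, 71.2 and 59.2 CPM at day 6, against 181, 214 and 203 CPM in control, while the inhibitor Cdkn1b rose, at 208, 199 and 206 CPM at day 6, against 127, 122 and 131 CPM in control. The list of p53 targets gave 19 of 42 higher (45.2%, against 26.7% of all tested genes) and 12 lower (28.6%, against 27.6%). Trp53inp1, a stress protein, rose, at 149, 155 and 142 CPM at day 6, against 43.7, 29.9 and 37.0 CPM in control. The secreted factor Gdf15 fell, at 19.8, 19.9 and 20.4 CPM at day 6, against 51.0, 66.3 and 67.6 CPM in control.

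Stress and quality-control genes fell more often than they rose, and lysosomal genes rose more often. Of 61 genes of the unfolded protein and ATF4 response 37 fell (60.7%, against 27.6% of all tested genes) and 12 rose (19.7%, against 26.7%), with a median of -0.28. Among the falls were the chaperone Calr at 531, 506 and 502 CPM at day 6, against 944, 1014 and 903 CPM in control and the serine enzyme Psph at 18.1, 22.2 and 16.1 CPM at day 6, against 48.7, 47.9 and 52.5 CPM in control. Herpud1, which acts in the degradation of proteins of the endoplasmic reticulum, rose, at 102, 111 and 108 CPM at day 6, against 46.0, 50.2 and 52.0 CPM in control. Of 54 NRF2 targets 26 fell (48.1%, 17 genes on TPM values) and 15 rose (27.8%, near the 26.7% of all tested genes). Gsr, glutathione reductase, had 77.0, 84.3 and 78.7 CPM at day 6, against 262, 273 and 277 CPM in control, whereas Gpx3, the secreted glutathione peroxidase made by proximal tubule, had 888, 848 and 850.1 CPM at day 6, against 149, 174 and 159.8 CPM in control. In the lysosome and autophagy list 36 of 66 rose (54.5%) and 13 fell (19.7%), with a median of 0.24. Among the rises were Scarb2, a lysosomal membrane receptor, at 74.1, 78.5 and 68.0 CPM at day 6, against 36.3, 35.4 and 33.6 CPM in control and the autophagy gene Gabarapl1 at 204, 201 and 193 CPM at day 6, against 75.5, 80.7 and 81.7 CPM in control. Ribosome and translation genes gave 27 of 58 lower (46.6%) and 3 higher (5.17%), with 11 lower and 5 higher on TPM values and 1 higher without control replicate A. Members called lower on TPM values also numbered 2 each for the mesenchymal, Notch and BMP and activin lists and 7 each for the axon guidance and lysosome lists, and glycolysis members called higher numbered 2 without control replicate C.

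**Figure D4:**
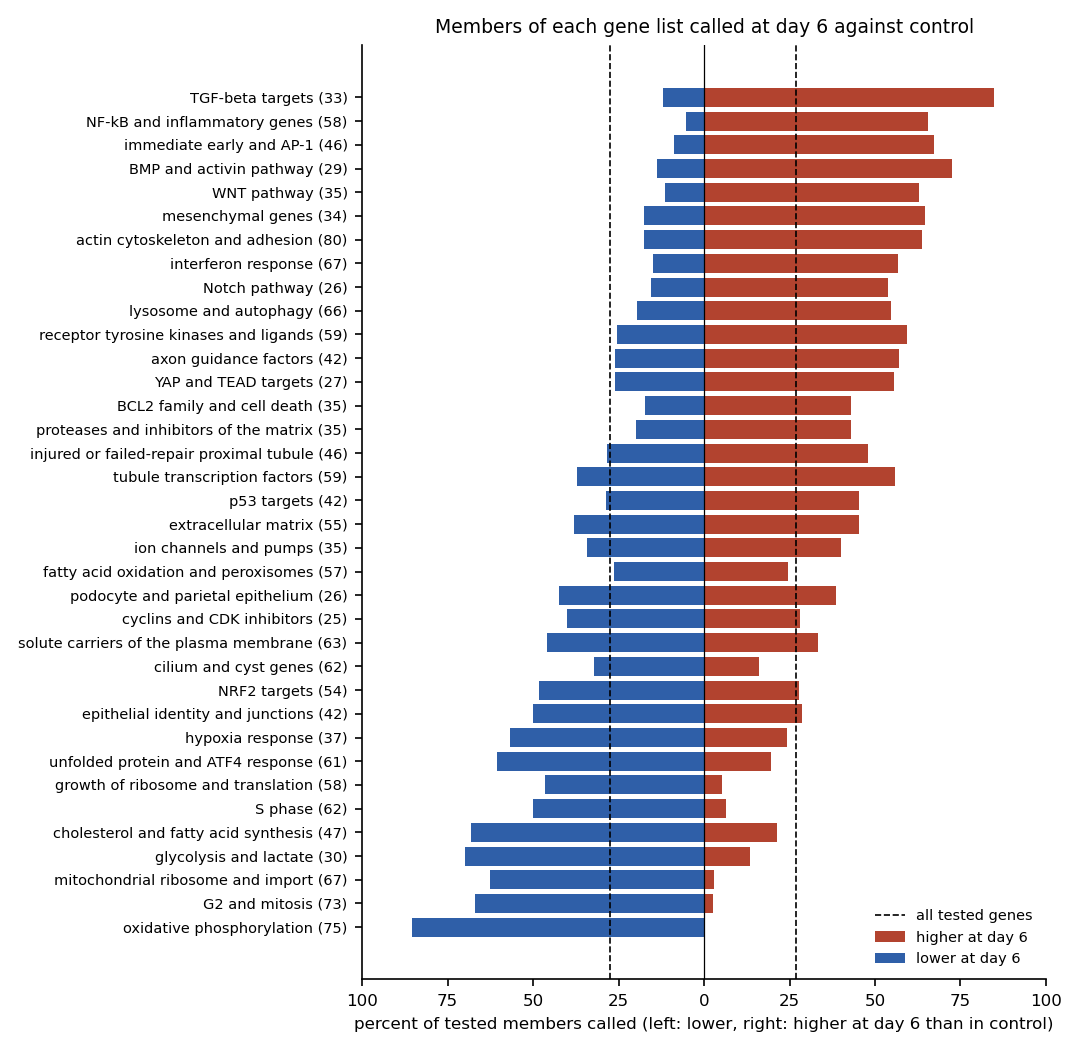
Percent of tested members called higher (bars to the right) and lower (bars to the left) at day 6 for each gene list with at least 25 tested members, with dashed lines at the 26.7% and 27.6% of all 13513 genes. TGF-beta targets, immediate early, NF-kB and BMP and activin genes have the highest shares of higher genes, and oxidative phosphorylation, glycolysis, cholesterol and fatty acid synthesis, and G2 and mitosis genes high shares of lower genes.

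Imprinted growth genes formed a small group of 12 tested members (median 1.02). Of these 10 rose (83.3%, against 26.7% of all tested genes) and 2 fell (16.7%, against 27.6%). The lower count was 1 on TPM values, with no filter on low counts, without control replicate C and without day 6 replicate C. H19, a maternally expressed noncoding RNA, had 18.3, 15.1 and 15.1 CPM at day 6, against 1.73, 2.91 and 0.836 CPM in control. Its neighbour Igf2, a fetal growth factor, had 40.6, 43.6 and 43.7 CPM at day 6, against 9.68, 7.06 and 9.41 CPM in control. Dlk1, a membrane protein of the delta family, had 5.77, 5.53 and 6.94 CPM at day 6, against 0.115, 0 and 0.105 CPM in control, a ratio of 76.6 with an interval of 20.9 to 638 from 2 control counts. Plagl1, a zinc finger factor, fell, at 17.8, 20.3 and 21.6 CPM at day 6, against 90.4, 69.7 and 88.1 CPM in control. Of genes that PAX8 drives in the thyroid, Tg, thyroglobulin, had 16.7, 16.7 and 19.1 CPM at day 6, against 3.34, 2.91 and 3.55 CPM in control. Slc5a5, the iodide carrier, averaged 0.546 ± 0.217 CPM at day 6 and 1.23 ± 0.352 CPM in control and was not called (edgeR adjusted p 0.0576), but it was called lower without control replicate B (0.0431) or day 6 replicate A (0.0449).

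Injury genes rose more often than they fell, and genes of other kidney cell types moved in both directions. Of 46 genes that mark injury or failed repair in the proximal tubule 22 rose (47.8%, against 26.7% of all tested genes). Another 13 fell (28.3%, against 27.6%). Clu, a secreted chaperone, rose, at 607, 598 and 608 CPM at day 6, against 271, 278 and 306 CPM in control. So did Spp1, osteopontin, at 2292, 2359 and 2289 CPM at day 6, against 1360.3, 1330.2 and 1405 CPM in control. The parietal and podocyte list was even, 10 higher and 11 lower of 26, with the tight junction gene Cldn1 falling, at 6.06, 6.41 and 5.33 CPM at day 6, against 42.3, 38.6 and 42.6 CPM in control. The secreted protein Dkk3 rose, at 326, 339 and 329 CPM at day 6, against 71.4, 80.0 and 72.9 CPM in control. Of 15 tested collecting duct genes 9 fell (60%) and 4 rose (26.7%, the share over all tested genes). Car2, a carbonic anhydrase, fell, at 26.6, 24.6 and 29.3 CPM at day 6, against 100.1, 110.4 and 114 CPM in control. The defining markers Aqp2 and Foxi1 were at 0. The endothelial markers Cdh5 and Kdr were at 0, and the 5 endothelial markers summed to 0.696 to 1.47 CPM at day 6 and 0.277 to 0.732 CPM in control. Of 19 tested oestrogen response genes 5 rose (26.3%) and 6 fell (31.6%), near the shares over all tested genes.

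Many genes also differed between day 6 and day 2, among them genes of glycolysis and of cholesterol and fatty acid synthesis. Between day 6 and day 2, 6062 genes were called (44.9% of those tested, 3055 higher, 22.6%, and 3007 lower, 22.3%), 1023 of them by at least 2-fold (7.57%), 582 higher (4.31%) and 441 lower (3.26%). On log2(TPM + 1) limma called 4755, of which 70.9% were higher, against 50.4% of the edgeR calls. The day 2 libraries were less alike than those of day 6. Their totals were 7386887, 4326667 and 11654959 counts in replicates A to C, with 4.89%, 5.70% and 4.11% of counts mitochondrial. Glycolysis genes gave 22 of 30 lower and 4 higher (median -0.64), cholesterol and fatty acid synthesis 34 of 47 lower and 6 higher (median -0.55), and oxidative phosphorylation 52 of 75 lower and 0 higher. Hmgcs1 averaged 435 ± 18.8 CPM in control, 436 ± 30.2 (day 2), 151 ± 2.62 (day 6) and 100.2 ± 2.06 CPM (day 12), and Abca1 11.5 ± 1.03 CPM in control, 12.4 ± 0.734 (day 2), 129 ± 8.49 (day 6) and 143 ± 4.68 CPM (day 12). Neither was called at day 2 against control (edgeR adjusted p 0.960 and 0.537), and both differed at day 6 from day 2 (log2 differences -1.53 ± 0.06 and 3.36 ± 0.09, edgeR adjusted p 3.28e-21 and 1.43e-25). Kif12, a kinesin, and Foxj1 were among the 8 largest falls from day 2 that meet the naming rule (log2 differences -4.72 ± 0.36 and -2.71 ± 0.15), and Plppr4, a membrane protein related to lipid phosphatases, among the 8 largest rises (log2 difference 3.45 ± 0.14).

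Between day 12 and day 6 fewer genes differed. There were 2971 called genes (22% of those tested, 1482 higher and 1489 lower, 11% each), of which 270 differed by at least 2-fold (2%), 188 higher (1.39%) and 82 lower (0.607%). On TPM values limma called 1379, of which 36.0% were higher at day 12, against 49.9% of the edgeR calls. Glycolysis genes were higher at day 12 than at day 6, 15 of 30 against 1 lower (median 0.22). Ldha, for instance, averaged 1032 ± 118 CPM in control, 1115 ± 51.5 (day 2), 374 ± 16.1 (day 6) and 600.4 ± 34.3 CPM (day 12). Genes of cholesterol and fatty acid synthesis fell further, 28 of 47 lower at day 12 and 2 higher (median -0.25). Genes of the unfolded protein and ATF4 response were 27 higher and 5 lower of 61 at day 12, and immediate early genes 5 higher and 20 lower of 46. The contractile genes Tagln and Actg2, a smooth muscle gamma actin, were among the 8 largest rises (log2 differences 2.27 ± 0.13 and 2.91 ± 0.18, edgeR adjusted p 6.73e-14 and 5.14e-14), and so was Dcn, the proteoglycan decorin (2.19 ± 0.18).

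**Figure D5:**
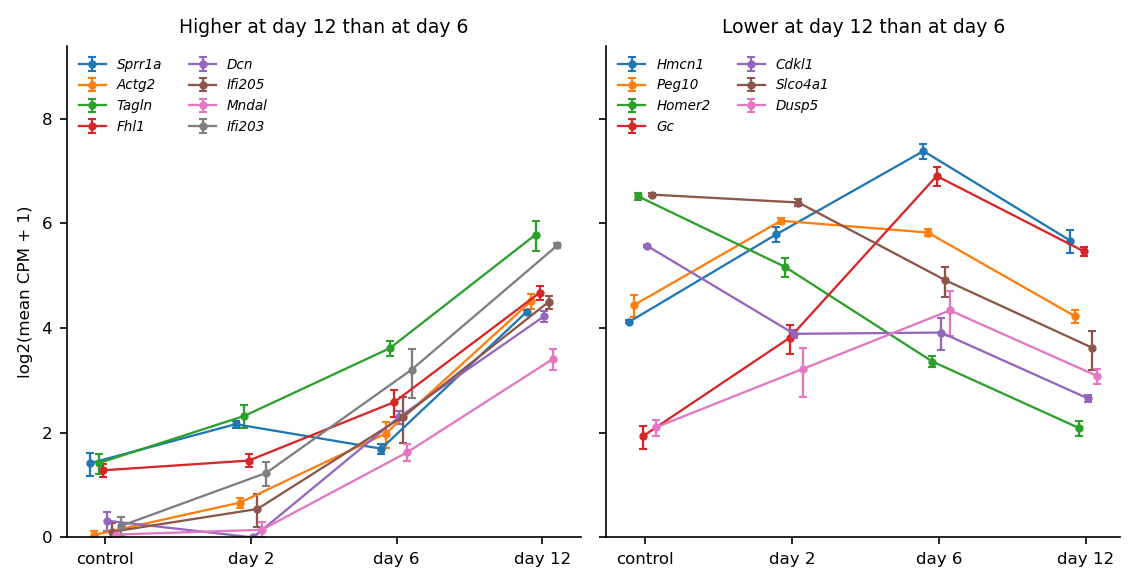
Log2(mean CPM + 1) with SD bars (n = 3) in control and at days 2, 6 and 12 for the 8 largest rises and 7 large falls of day 12 against day 6. Gc, Hmcn1 and Dusp5 peak at day 6, and Tagln, Actg2 and Dcn are highest at day 12.

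Gc averaged 2.81 ± 0.584 CPM in control, 13.1 ± 2.71 (day 2), 119 ± 14.6 (day 6) and 43.3 ± 2.74 CPM (day 12), highest at day 6. Some further named genes, singled out here after their values were seen, had a higher mean at day 6 than at days 2 and 12. Lrp2 had 268 CPM in control, 112 (day 2), 229.7 (day 6) and 95.9 CPM (day 12), so megalin was lower at both other treated days than at day 6 (log2 differences 1.02 ± 0.07 for day 6 over day 2 and -1.26 ± 0.07 for day 12 over day 6, edgeR adjusted p 8.57e-15 and 5.06e-16). Malat1 had 2599 CPM in control, 2262 (day 2), 4325 (day 6) and 2708 CPM (day 12), with log2 differences of 0.94 ± 0.07 and -0.68 ± 0.07 in the same order. Hmcn1, the basement membrane protein hemicentin 1, had 16.4 CPM in control, 54.4 (day 2), 166 (day 6) and 49.9 CPM (day 12), and Dusp5, a phosphatase of ERK kinases, had 3.30 CPM in control, 8.32 (day 2), 19.2 (day 6) and 7.49 CPM (day 12). Dusp5 at day 6 was 16.5, 26.0 and 15.2 CPM in replicates A to C, so replicate B stood above the other two. Hes1, a target of Notch, had 21.3 CPM in control, 21.3 (day 2), 39.0 (day 6) and 19.4 CPM (day 12) (log2 difference 0.87 ± 0.11 for day 6 over day 2). For all 5 genes the day 12 mean lay under the day 6 mean with an edgeR adjusted p under 0.05.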

How the data were processed

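PolyA RNA of PT-22 cells was sequenced in 12 libraries, 3 each from control and from days 2, 6 and 12 after treatment, and groups were taken from the labels. The tools named are RSEM 1.3.3, STAR 2.7.8a, FastQC 0.11.8 and cutadapt 2.3 and the build is GRCm38, per the submitters' processing notes. Annotation release and strand use are not given in the sources used here. Antisense and overlapping genes and close copies are therefore uncertain. The authors deposited expected counts, rounded and not normalized, for 55491 rows, 4 of them without an Ensembl ID. A second table deposited by the authors held TPM values. All columns were used (0 left out). Positions came from GENCODE M21, which held 55227 of the IDs.

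Counts were filtered with filterByExpr (13513 genes left), scaled by TMM and fitted in R 4.3.3 with edgeR 4.0.16 in 1 robust quasi-likelihood model of the 4 groups (12 libraries, common biological coefficient of variation 0.0577, with 8 residual degrees of freedom), with contrasts of day 6 against control, day 6 against day 2 and day 12 against day 6. Tests were two-sided and adjusted by Benjamini-Hochberg over all tested genes. The comparisons of day 6 with control and with day 2, and of day 12 with day 6, share the day 6 libraries. The scripts were tested on simulated counts with known changes. Where a group had 0 counts a fold is a bound, computed with 3 counts for the whole group, and with 1 to 3 counts a ratio with its exact 95% interval, both for counting error only. The chi-square per degree of freedom between replicates was 2.28 to 2.55 at day 6 and 2.88 to 3.62 in control, which no copied library would give. It was 3.80 to 7.56 at day 2 and 2.12 to 4.51 at day 12.

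The comparison and the 47 gene lists (1994 symbols, 4 without a match) were chosen with earlier results of these data known. Lists share genes, are not separate results and are described by counts and medians only. Tested members also on another list numbered 22 of 22 for the nephron progenitor list and 32 of 34 for the mesenchymal list. They numbered 34 of 46 for the injury list and 19 of 33 for TGF-beta targets. Genes named are Pax8, Pax2, Pax5 and Cre, the 20 largest called rises and falls with a mean of at least 5 CPM and no overlap, the 10 largest CPM gains and losses, up to 8 members of each list with the smallest p and up to 2 of the other direction, defining cell type markers, and the 8 largest rises and falls of the other 2 contrasts. Predicted genes, histones and mitochondrial genes were left out of the ranked sets, and some genes that meet the rule are not reported here. Promoters are RefSeq windows on GRCm38.p6, of which 10050 matched tested genes. Alternatives were other scalings, filters and dispersions, DESeq2 1.42.0, limma 3.58.1 on log2(TPM + 1) and log2(TPM + 0.1), a replicate block and leaving out each library.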

Additional observations from a re-analysis of the deposited data

Results flagged for a closer look

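For 14 named genes the difference from control had opposite directions at days 2 and 6, called at both, and the contrast of day 6 over day 2 was itself called by edgeR's quasi-likelihood test. They fell into those below control at day 2 and above it at day 6, and those above control at day 2 and below it at day 6. Below and then above control were Id3, with a log2 difference of day 6 over day 2 of 2.99, the membrane protein Plppr4 (3.45), the secreted chaperone Clu (1.66), the chloride carrier Slc12a2 (1.61), the nuclear RNA Malat1 (0.94) and the proteoglycan Dcn. Dcn averaged 0.246 CPM in control, 0 (day 2), 3.91 (day 6) and 17.8 CPM (day 12), and its fitted log2 difference of 8.06 depends on a day 2 group with 0 counts and is no bound. Id3 averaged 17.4 ± 1.68 CPM in control, 11.1 ± 3.497 (day 2), 84.5 ± 6.23 (day 6) and 196 ± 7.99 CPM (day 12), and Clu 285 ± 18.3 CPM in control, 191 ± 7.27 (day 2), 604 ± 5.64 (day 6) and 871 ± 21.5 CPM (day 12) (SD, n = 3 each).

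Above and then below control were the mitophagy gene Bnip3 (-1.85), the sterol oxidase Msmo1 (-1.71), the lysyl oxidase Loxl2 (-1.17), the phosphatase regulator Ppp1r1b (-1.10), the enolase Eno1, which has a near copy and is uncertain (-0.99), the serine enzyme Psat1 (-0.94), the tropomyosin Tpm1 (-0.76) and the cell death protein Bak1 (-0.75). Bnip3 averaged 166 ± 3.38 CPM in control, 204 ± 12.4 (day 2), 55.9 ± 5.57 (day 6) and 113 ± 5.84 CPM (day 12), and Msmo1 145 ± 2.81 CPM in control, 167 ± 19.4 (day 2), 51.3 ± 0.485 (day 6) and 44.3 ± 2.00 CPM (day 12) (SD, n = 3 each). The differences from control at day 2 were small beside those at day 6 for these 2 genes. The day 2 libraries varied in depth, as given above. Bak1 lost its day 6 call in some of the alternatives.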

How the results depend on the processing

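The count of genes that differed between day 6 and control ran from 5681 (limma on log2(TPM + 0.1)) to 7423 (the 6 libraries alone), against 7343, and from 6684 to 6924 when 1 library was left out, while DESeq2 called 6714. Of the 7343 calls, 71.7% to 99.5% were shared in the same direction, and 3 were called in the opposite direction on each TPM scale. The count at 2-fold or more ran from 1790 to 1837 without 1 library and was 1037 when the fold of 2 itself was tested. Between day 6 and day 2 the count ran from 5331 to 5861 without 1 library. Between day 12 and day 6 it ran from 2062 to 2536 without 1 library, against 2971, and fell to 1379 and 1300 with limma on log2(TPM + 1) and log2(TPM + 0.1). The cause of the TPM differences was not tested. The 2 named genes that turned direction on the 2 TPM scales were Exo1 (-0.25 and -0.26, against 0.33) and G6pc3 (0.037 on both, against -0.36). Of 380 named genes called at day 6, 362 kept their call and direction in every setting that tested them. Most settings tested 391 named genes, the 6 libraries alone 386 and the strict filter on low counts 383. The letters A to C did not pair the libraries (correlations of same-lettered deviations -0.0219, 0.0133 and -0.000961), and a replicate block gave 7370 calls. Genes under the filter, at a few counts a library, could not be tested, and 6170 tested genes were not called, of which 2618 had a 95% interval within 1.25-fold.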

Other observations

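Several gene groups outside the comparisons above are given as counts and values. Of 35 tested genes of the BCL2 family and cell death 15 rose at day 6 (42.9%, against 26.7% of all tested genes). Another 6 fell (17.1%, against 27.6%), and 2 fell on TPM values. The median log2 difference was 0.17. Bcl2, which blocks apoptosis, had 43.6, 36.6 and 40.7 CPM at day 6, against 21.2, 19.9 and 21.4 CPM in control, and the death receptor Fas had 3.98, 3.87 and 4.13 CPM at day 6, against 0.691, 0.830 and 0 CPM in control. Both rose in every library, while Casp8, the caspase that death receptors act through, fell, at 43.5, 43.8 and 37.5 CPM at day 6, against 68.0, 65.4 and 64.5 CPM in control. Of 25 cyclins and inhibitors of cyclin-dependent kinases 7 were higher (28%, near the 26.7% of all tested genes) and 10 lower (40%, 6 genes on TPM values). Among the higher were the cyclin Ccng2 at 133, 127 and 133 CPM at day 6, against 56.9, 47.6 and 54.5 CPM in control and Mycn, a MYC family transcription factor, at 7.16, 7.18 and 8.14 CPM at day 6, against 1.15, 1.38 and 2.40 CPM in control. In gluconeogenesis the counts were 1 higher (25%) and 3 lower (75%) of 4. The higher one, Pck2, lost its call without control replicate A or C and without day 6 replicate A or C.

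Of 12 tested genes of the loop of Henle and distal tubule 8 rose (66.7%, against 26.7% of all tested genes) and 4 fell (33.3%, against 27.6%). Trpm6, a magnesium channel of the distal tubule, had 19.3, 18.0 and 20.4 CPM at day 6, against 7.03, 7.47 and 9.09 CPM in control, and Klhl3, which regulates WNK kinases there, had 7.16, 8.29 and 7.74 CPM at day 6, against 1.96, 1.66 and 1.57 CPM in control. The defining markers of that segment were at or near 0, as given above. Of 15 tested genes of fibroblasts and smooth muscle 10 rose (66.7%) and 3 fell (20%), with a median of 1.29, and 1 fell on TPM values. Of 3 tested endothelial genes 1 rose and 1 fell (33.3% each). No fall was called with DESeq2, without control replicate B or without day 6 replicate A or C, and neither call was made on TPM values. Foxd1, a factor of the kidney stroma, was among the stromal falls, at 19.6, 19.7 and 20.3 CPM at day 6, against 28.6, 38.9 and 37.7 CPM in control, and Ebf1, a factor of mural cells, among the rises, at 5.96, 5.08 and 3.20 CPM at day 6, against 1.04, 1.38 and 0.941 CPM in control.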
